A study of Mus musculus with 9 samples.

Results

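Extracellular ATP, ADP, UDP, UDP-sugars and adenosine act on macrophages through the P2X ion channels, the G protein-coupled P2Y receptors and the adenosine receptors. The 10 genes described here are 9 of these receptors (P2rx4, P2rx7, P2ry2, P2ry6, P2ry12, P2ry13, P2ry14, Adora2b and Adora3) together with Entpd1, which encodes the ectonucleotidase CD39. They were picked by gene symbol out of the 28379 genes in the deposited table, and all 10 had enough counts to be tested. ATP that leaves a cell opens P2X channels and activates P2Y2, its breakdown product ADP activates P2Y12 and P2Y13, UDP from UTP activates P2Y6, and CD39 hydrolyses ATP and ADP on the path to adenosine. In bone, P2X7 has been studied in the fusion and survival of osteoclasts, P2Y12, P2Y6 and P2Y14 in osteoclast formation, and adenosine receptors in both bone-forming and bone-resorbing cells.

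RNA was sequenced from primary bone marrow-derived macrophages (BMDMs) of 10-week-old C57BL/6J mice in 3 groups of 3 libraries. The cultures contained 20 ng/mL of macrophage colony-stimulating factor (M-CSF), the growth factor that keeps macrophages alive, and were collected after 48 h. Cells of the PBS group grew without RANKL. Those of the RANKL group were given 100 ng/mL of RANKL, the cytokine that drives macrophages to become osteoclasts. Those of the third group, RANKL + Vit D + K, were given the same RANKL plus vitamin D (calcitriol, 1000 nM) and vitamin K (menaquinone-4, 20 μM by the sample labels, while the methods of the study give a higher dose). The vitamins were not given singly or without RANKL in these libraries, so vitamin D and vitamin K cannot be told apart. The methods describe libraries built from pooled RNA, and nothing states that replicates were separate cultures or animals, so the p-values measure the spread between these libraries, which may be technical.

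The libraries held 65915112 to 68229647 counts. The osteoclast genes Acp5 and Ctsk followed the labels, with log2 fold changes of 5.57 and 4.83 in RANKL against PBS and of -5.89 and -2.80 once the vitamins were added. Of 7 osteoclast markers, 7 rose with RANKL, beside 2.35% of all genes tested, and 6 fell with the vitamins against RANKL, beside 17.2%. The exception was Atp6v0d2 (-0.23, adjusted p = 0.701, edgeR). Calcr and Ocstamp reached the filter on low counts through the RANKL group, where they are high. Cyp24a1, the vitamin D-degrading enzyme induced by the vitamin D receptor, had 39, 113 and 64 counts with the vitamins and 0 in each RANKL library, at least 24.1-fold higher. Of 6 macrophage markers, 4 fell and 1, Cd68, rose (log2 fold change 0.53, adjusted p = 0.0143, edgeR) in RANKL + Vit D + K against RANKL, where 17.2% of all genes tested were called lower and 16.4% higher. The summed FPKM of the 6 (a level per length of transcript and per size of library, used below) was 2102 to 2251 in PBS, 1598 to 1966 in RANKL and 1296 to 1339 with the vitamins. The 7 osteoclast markers summed to 13.7 to 21.1, 470 to 989 and 51.7 to 85.5 FPKM, and the 7 neutrophil markers to 10.8 to 123, 10.7 to 141 and 0.551 to 1.72 FPKM, with Elane, Mpo and Camp at 0 counts in each vitamin-treated library. Ly6g was at 0 counts in the RANKL and vitamin-treated libraries and at 0 to 7 in PBS. Platelet markers summed to 7.26 to 34.0 FPKM in PBS, 4.05 to 15.2 in RANKL and 10.6 to 18.9 with the vitamins. Most of this sum was Pf4, with means of 14.3, 6.32 and 14.7 FPKM and no call. Of the 4 platelet markers tested, 0 rose and 1, Gp1ba, fell with the vitamins against RANKL (log2 fold change -2.10, adjusted p = 0.00599, edgeR), with a median of -1.65, and Gp9 was at 0 counts in the vitamin-treated libraries. Endothelial markers summed to 0.423 to 0.637, 0.657 to 0.968 and 1.33 to 3.18 FPKM, with Kdr higher with the vitamins than with RANKL alone (log2 fold change 2.01, adjusted p = 0.00779, edgeR), while Pecam1 (-0.34) and Cdh5 (-0.07) were not called. B cell markers summed to 0.380 to 0.514, 0.423 to 0.795 and 0 to 0.0441 FPKM. The highest sums of the remaining lists were 0.492 for T and NK cell, 0.413 for dendritic cell, 0.377 for eosinophil, 0.327 for mast cell, 0.280 for stromal and 0.275 for erythroid markers. In bulk RNA, fewer cells of a type and less RNA per cell cannot be told apart. The part of these other cells in the results below was not tested.

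Among the vitamin-treated libraries, replicate 2 stood nearer to the other treatments than its own replicates did. Its correlation with the 3 RANKL libraries was 0.937 to 0.952 over the genes tested, while replicates 1 and 3 gave 0.898 to 0.921. Where leaving this library out changed a call or a direction among the 10 genes, the value without it is given.

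P2ry6 was the most abundant of the 10 transcripts in untreated macrophages and the P2X channels and Entpd1 came next. In the PBS group the mean levels were 63.1 ± 7.005 FPKM for P2ry6, 30.1 ± 3.85 for P2rx4, 24.8 ± 1.57 for P2rx7 and 23.8 ± 2.32 for Entpd1 (SD, n = 3). P2ry2, P2ry13 and P2ry12 lay at 4.25 ± 0.437, 4.12 ± 1.51 and 3.73 ± 1.03 FPKM, Adora3 and P2ry14 at 1.29 ± 0.258 and 1.16 ± 0.233, and Adora2b was lowest at 0.481 ± 0.148. The 3 values of neighbours in this order overlapped for P2rx4 with P2rx7, P2rx7 with Entpd1, P2ry2 with P2ry13, P2ry13 with P2ry12, and Adora3 with P2ry14. With RANKL the order kept P2ry6, P2rx4 and P2rx7 at the top (42.3 ± 7.52, 26.7 ± 5.20 and 22.0 ± 4.17 FPKM), while P2ry12, P2ry13 and P2ry14 stood above P2ry2 and Adora3 was last at 0.515 ± 0.0340. With the vitamins P2rx4 came first at 16.4 ± 1.37 FPKM and P2ry2 had moved among the abundant genes at 8.68 ± 1.98, between P2ry6 (9.48 ± 9.92) and Entpd1 (7.61 ± 1.35). Neighbours in this order overlapped down to P2rx7 (7.39 ± 2.09). P2rx4 overlapped with P2ry6 through vitamin replicate 2 only, and its 3 values lay above all those of P2ry2, Entpd1 and P2rx7. Summed over the 10 genes, the level was 146 to 166 FPKM in PBS, 99.4 to 135 in RANKL and 43.2, 69.4 and 49.8 in the 3 vitamin-treated libraries, so the 3 groups did not overlap.

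**Figure D1:**
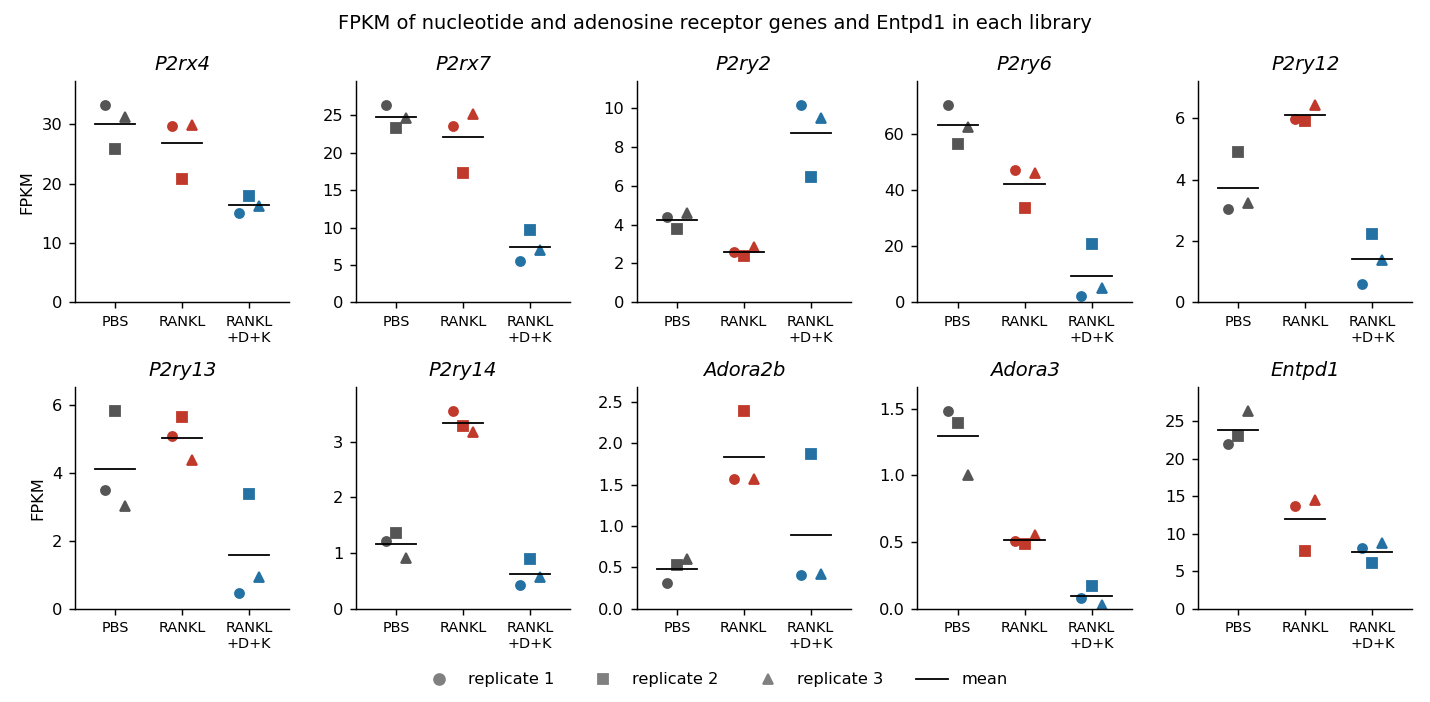
FPKM of each of the 10 genes (vertical axes, linear, each starting at 0) in the 9 libraries, by group on the horizontal axis; symbols mark the replicate number and the line is the group mean. P2ry14 is highest in the 3 RANKL libraries (3.18 to 3.56 FPKM), P2ry2 is highest in the 3 vitamin-treated libraries (6.43 to 10.1), and replicate 2 of the vitamin group lies above its replicates for all genes but P2ry2 and Entpd1, where it lies below them.

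The first comparison asked what RANKL alone did to these genes. In the quasi-likelihood test of edgeR, with p-values adjusted over all genes by the Benjamini-Hochberg method, 1 of the 10, P2ry14, rose and 0 fell at an adjusted p under 0.05, beside 3.61% of all 17002 genes tested (2.35% higher and 1.26% lower). With the replicate number as a block 2 of the 10, P2ry2 and Entpd1, were called lower and 1 higher (adjusted p = 0.035 and 0.0197 for the former), beside 1.69% lower and 3.16% higher among all genes in that fit. DESeq2 called 2 higher and 3 lower, beside 6.47% and 3.94% of the genes to which it gave an adjusted p. FPKM values did not overlap between the groups for 7 of the 10, 3 higher (P2ry12, P2ry14 and Adora2b) and 4 lower (P2ry2, P2ry6, Adora3 and Entpd1) with RANKL, beside 35.2% of all genes tested (22.4% higher and 12.9% lower). The median log2 fold change of the 10 was -0.29, beside -0.04 for all genes. The second comparison asked what the vitamins changed in RANKL-treated cells. There P2ry2 rose and 6 fell (P2rx4, P2rx7, P2ry6, P2ry12, P2ry14 and Adora3), beside 33.7% of all genes (16.4% higher and 17.2% lower). FPKM did not overlap for 8 of the 10, 1 higher and 7 lower, beside 46.2% of all genes (17.0% higher and 29.2% lower), and the median log2 fold change was -1.52, beside -0.04. In RANKL + Vit D + K against PBS, P2ry2 again rose and 7 fell, the same 6 and Entpd1, beside 40.8% of all genes (19.8% higher and 21.0% lower), with a median log2 fold change of -1.42. The 3 comparisons share libraries, so their values are set side by side below and not counted as separate evidence.

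**Figure D2:**
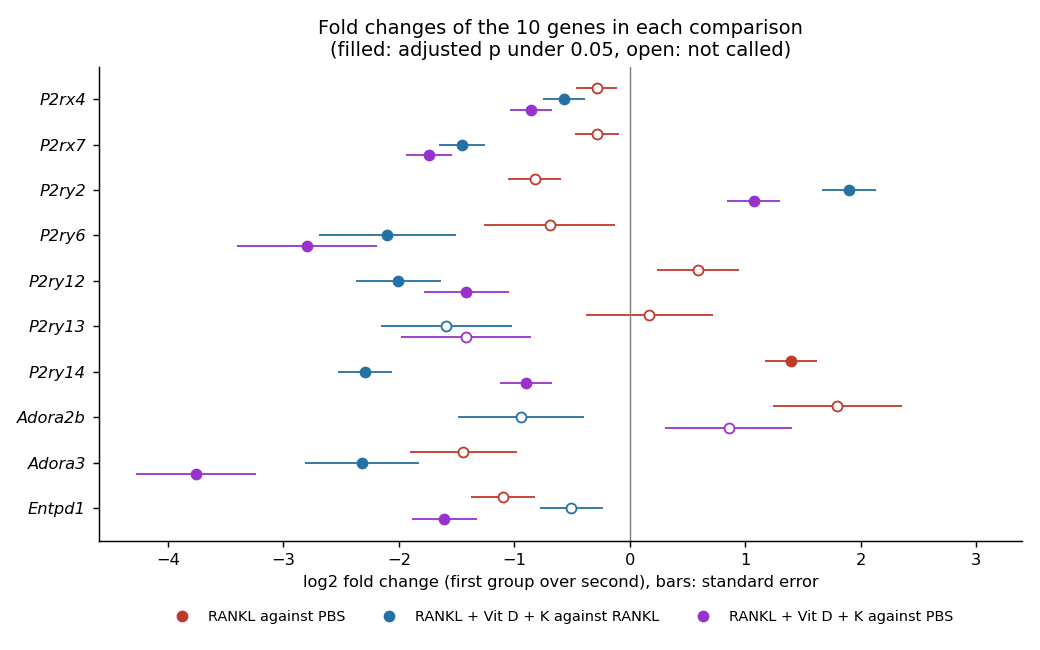
log2 fold changes of the 10 genes from edgeR (horizontal axis, with standard error bars) in the 3 comparisons; filled points have an adjusted p under 0.05. In RANKL against PBS, in this fit without a replicate block, only P2ry14 is filled (1.40), and in both vitamin comparisons P2ry2 is the filled point to the right of 0 (1.90 and 1.07).

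The ATP-gated channels P2rx4 and P2rx7 fell with the vitamins, and the fitted change was larger for P2rx7 than for P2rx4. P2X4 is a calcium-permeable channel found largely in lysosomes of macrophages, and P2X7 opens at high ATP and is known for activating the NLRP3 inflammasome and for pore formation. P2rx7 (chr5:122643911-122684297, plus strand, GRCm38) measured 26.4, 23.3 and 24.6 FPKM in PBS, 23.6, 17.3 and 25.2 in RANKL and 5.53, 9.66 and 6.98 with the vitamins. Each vitamin-treated library lay below all others, while PBS and RANKL overlapped. The log2 fold change was -0.28 ± 0.194 (SE) in RANKL against PBS (adjusted p = 0.491, edgeR), -1.46 ± 0.198 in RANKL + Vit D + K against RANKL (adjusted p = 0.0014) and -1.74 ± 0.200 against PBS (adjusted p = 0.000428).

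P2rx4 (chr5:122707544-122729738, plus strand) measured 33.2, 25.8 and 31.2 FPKM in PBS, 29.6, 20.7 and 29.9 in RANKL, and 15.1, 17.8 and 16.2 with the vitamins. Again only the vitamin-treated group stood apart, with replicate 2 of RANKL closest to it. The log2 fold change was -0.29 ± 0.179 in RANKL against PBS (adjusted p = 0.447, edgeR), -0.57 ± 0.180 for the vitamins against RANKL (adjusted p = 0.0366) and -0.86 ± 0.180 against PBS (adjusted p = 0.00562). The call against RANKL was lost in the fit of these groups alone and without RANKL replicate 1 or 3 or vitamin replicate 1 or 3 (adjusted p up to 0.130).

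P2rx7 and P2rx4 lie 23246 bases apart on the same strand with no gene of the table wholly between them. Within a library, P2rx7 stood at 0.789 to 0.903 of the FPKM of P2rx4 in PBS, at 0.797 to 0.843 in RANKL and at 0.366, 0.542 and 0.431 with the vitamins. The ratio was thus alike in PBS and RANKL and lower in each vitamin-treated library. Camkk2, a calcium-dependent kinase gene that follows P2rx4 on the other strand, fell with the vitamins too, from 13.3 to 3.17 mean FPKM (log2 fold change -1.98, adjusted p = 0.00555, edgeR).

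The uracil nucleotide receptors moved in opposite directions with the vitamins. P2Y2 responds to ATP and UTP and is known for the recruitment of phagocytes to dying cells, and P2Y6 responds to UDP and is known for promoting phagocytosis. P2ry2 (chr7:100996568-101011998, minus strand) measured 4.39, 3.76 and 4.60 FPKM in PBS, 2.57, 2.39 and 2.85 in RANKL and 10.1, 6.43 and 9.47 with the vitamins. The 3 groups did not overlap, with RANKL lowest and the vitamins highest. P2ry2 was 3.73-fold higher with the vitamins than with RANKL alone (log2 fold change 1.90 ± 0.235, adjusted p = 0.00101, edgeR) and 2.10-fold higher than in PBS (1.07 ± 0.229, adjusted p = 0.0061). The difference between RANKL and PBS was -0.83 ± 0.229 (adjusted p = 0.0872), and with the replicate number as a block it was -0.82 (adjusted p = 0.035). It also passed without vitamin replicate 2 (-0.83, adjusted p = 0.0107), a library of neither group that enters the shared fit.

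P2ry6 (chr7:100937630-100974649, minus strand) measured 70.4, 56.5 and 62.4 FPKM in PBS, 47.1, 33.7 and 46.3 in RANKL and 2.48, 20.8 and 5.14 with the vitamins. All vitamin-treated libraries lay below all RANKL libraries, but replicate 2 stood well above its own replicates. The log2 fold change was -0.69 ± 0.569 in RANKL against PBS (adjusted p = 0.58, edgeR), -2.10 ± 0.591 in the vitamin comparison with RANKL (adjusted p = 0.0241) and -2.79 ± 0.607 in that with PBS (adjusted p = 0.00655). All RANKL libraries lay below all PBS libraries. In the fit of PBS and RANKL alone, this difference was called, at -0.64 ± 0.163 (adjusted p = 0.0487, edgeR). Without vitamin replicate 2 the log2 fold change was -3.27 against RANKL and -3.96 against PBS, while the call against RANKL was lost without RANKL replicate 1 or 3 or vitamin replicate 3 and in the fit of the 2 groups alone (adjusted p up to 0.0924).

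P2ry2 and P2ry6 are neighbours, 21918 bases apart on the same strand. P2ry2 stood at 0.0623 to 0.0737 of the FPKM of P2ry6 in PBS and at 0.0545 to 0.0711 in RANKL, and at 4.09, 0.309 and 1.84 with the vitamins. P2ry6 was thus the larger of the pair in all PBS and RANKL libraries, and P2ry2 the larger in vitamin replicates 1 and 3. P2ry6 made up 33.8% to 42.5% of the summed FPKM of the 10 genes in PBS and RANKL and 5.73%, 30.0% and 10.3% with the vitamins. Fchsd2, the next protein-coding gene beyond P2ry2, fell from 5.43 to 2.68 mean FPKM with the vitamins (log2 fold change -0.87, adjusted p = 0.00181, edgeR), the direction opposite to that of P2ry2.

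**Figure D3:**
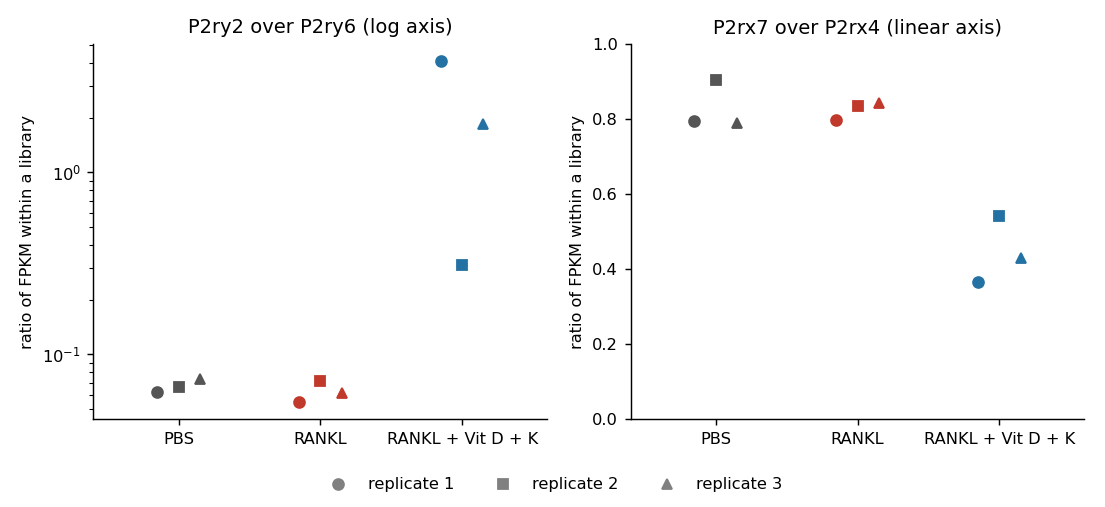
Ratio of FPKM within each library for 2 pairs of neighbouring genes, P2ry2 over P2ry6 on a log axis (left) and P2rx7 over P2rx4 on a linear axis from 0 (right), by group; symbols mark the replicate number. The P2ry2 ratio lies under 0.1 in the 6 libraries without vitamins and at 0.309 to 4.09 with them, and the P2rx7 ratio lies at 0.789 to 0.903 without and at 0.366 to 0.542 with them.

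Because P2ry2 was the gene of the 10 that rose with the vitamins, the bases just upstream of its start are shown. The window is that of RefSeq on GRCm38.p6, chr7:101012054-101012303, minus strand, 1 of 2 that RefSeq gives for the gene and the one free of exons of P2ry2, written 5′ to 3′. A direct repeat of the vitamin D receptor type, with 3 bases between its hexamers, was searched on both strands. Only a fixed set of hexamers was used, and other forms of the element were not searched. The repeat was found in 13 of 32851 such windows of all genes (0.0396%). Among the 15 windows that RefSeq gives for the listed genes, it was found in 0. A match this rare is seldom met in 15 windows of any genes, so its absence here tells little. Whether these genes have a vitamin D receptor element was not tested. The window below held none of the motifs searched and so carries no capitals.
P2ry2: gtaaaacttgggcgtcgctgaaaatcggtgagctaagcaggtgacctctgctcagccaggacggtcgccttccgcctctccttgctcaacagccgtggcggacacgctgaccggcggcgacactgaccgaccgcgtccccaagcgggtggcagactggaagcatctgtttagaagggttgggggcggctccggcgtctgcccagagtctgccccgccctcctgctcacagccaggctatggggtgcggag

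The ADP and UDP-sugar receptors P2ry12, P2ry13 and P2ry14 form a cluster on chromosome 3, and all 3 were highest in mean level with RANKL. P2Y12 is the ADP receptor blocked by clopidogrel in platelets and marks microglia in the brain, P2Y13 is a second ADP receptor, and P2Y14 responds to UDP-glucose and other UDP-sugars. P2ry14 (chr3:59113855-59132462, minus strand) measured 1.22, 1.36 and 0.908 FPKM in PBS, 3.56, 3.28 and 3.18 in RANKL and 0.420, 0.890 and 0.568 with the vitamins. The RANKL libraries stood apart above, and each vitamin-treated library lay below each PBS library. P2ry14 rose 2.63-fold with RANKL (log2 fold change 1.40 ± 0.226, adjusted p = 0.0145, edgeR) and was 4.89-fold lower in the vitamin-treated group than in the RANKL group (-2.29 ± 0.233, adjusted p = 0.00048) and 1.86-fold lower than in PBS (-0.90 ± 0.225, adjusted p = 0.0124). The rise with RANKL was not called without PBS replicate 1 or 3 or RANKL replicate 1 (log2 fold change 1.31 to 1.49, adjusted p up to 0.0697), and the difference from PBS was not called without PBS replicate 1 or 2 or vitamin replicate 3 (adjusted p up to 0.0603).

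P2ry12 (chr3:59216272-59262871, minus strand) measured 3.03, 4.91 and 3.24 FPKM in PBS, 5.98, 5.90 and 6.44 in RANKL and 0.599, 2.23 and 1.38 with the vitamins. The 3 groups did not overlap, although the difference of 0.59 ± 0.356 on the log2 scale between RANKL and PBS did not pass the test (adjusted p = 0.433, edgeR). P2ry12 was 4.01-fold lower in the vitamin-treated group than in the RANKL group (-2.00 ± 0.370, adjusted p = 0.00464) and 2.67-fold lower than in PBS (-1.41 ± 0.364, adjusted p = 0.0138), the latter not called without PBS replicate 2 or vitamin replicate 3 (adjusted p up to 0.0599).

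P2ry13 (chr3:59207892-59210882, minus strand) measured 3.50, 5.84 and 3.03 FPKM in PBS, 5.10, 5.65 and 4.40 in RANKL and 0.455, 3.38 and 0.927 with the vitamins. All vitamin-treated libraries were below all RANKL libraries, but replicate 2 reached into the PBS range. The log2 fold change was -1.59 ± 0.568 for the vitamins against RANKL (adjusted p = 0.0572, edgeR) and -1.42 ± 0.566 against PBS (adjusted p = 0.0719), so neither passed the test. Without vitamin replicate 2 these became -2.65 (adjusted p = 0.000483) and -2.48 (adjusted p = 0.000623), and DESeq2 on all 9 libraries called both (adjusted p = 0.0123 and 0.0259), as did the replicate block (-1.92 and -1.65, adjusted p = 0.019 and 0.0234). Between RANKL and PBS it was 0.17 ± 0.552 (adjusted p = 0.915).

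The 3 genes lie on the minus strand inside Med12l, a Mediator subunit gene on the plus strand with 52 to 337 counts a library, fewer than each of the 3 had in any PBS or RANKL library. P2ry13 and P2ry12 are 5389 bases apart, and P2ry14 and P2ry13 75429 bases apart. Whether the counting used the strand is not stated, so reads of Med12l and of the receptors may be mixed. In vitamin replicates 1 and 3 Med12l had 209 and 316 counts, more than P2ry13 (86 and 175) and P2ry12 (116 and 265). Across the 9 libraries the log2 level of P2ry12 correlated with P2ry13 at r = 0.944 and with P2ry14 at 0.906, and that of P2ry13 with P2ry14 at 0.797, values that carry the group differences themselves. Dendritic cell markers, whose cells can also express these receptors, summed to 0.266 to 0.413 FPKM with RANKL and 0.00593 to 0.0639 with the vitamins, while platelet markers other than Pf4 had lower means with the vitamins than with RANKL. Their part was not tested.

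Windows upstream of P2ry13 and P2ry14 are shown to set 2 neighbours of the cluster side by side, P2ry14 being the gene called with RANKL. Both are on the minus strand of GRCm38.p6 in RefSeq, at chr3:59210883-59211132 for P2ry13 and at chr3:59131329-59131578 for P2ry14, the latter 1 of 4 start sites listed for that gene and within the span given above. Capitals mark matches on either strand to the AP-1 motif TGANTCA, to the PU.1-type motif GAGGAAG, and to the E-box CATGTG used by the MITF family. These letters occur in 6.75%, 10.6% and 12.3% of all windows, and in 4, 4 and 3 of the 15 windows of the listed genes.
P2ry13: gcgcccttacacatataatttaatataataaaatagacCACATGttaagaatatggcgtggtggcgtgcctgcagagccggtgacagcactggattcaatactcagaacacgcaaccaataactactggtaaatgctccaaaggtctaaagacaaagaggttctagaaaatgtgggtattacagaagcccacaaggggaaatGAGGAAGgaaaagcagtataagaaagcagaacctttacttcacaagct
P2ry14: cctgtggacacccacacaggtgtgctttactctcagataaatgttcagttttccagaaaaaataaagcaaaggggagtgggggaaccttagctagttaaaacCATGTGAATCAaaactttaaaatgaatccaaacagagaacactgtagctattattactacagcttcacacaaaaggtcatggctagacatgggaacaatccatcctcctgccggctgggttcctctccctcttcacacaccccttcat
In the P2ry14 window the E-box and the AP-1 letters overlap and read as 1 run. Matches to these motifs that overlap, counted after the windows had been read, occur in 39 of the 32851 windows (0.119%) and in 2 of the 15 windows of the listed genes. The overlap was picked from the P2ry14 window itself, which is among them, so these counts are a description and no measure of enrichment.

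Neither adenosine receptor passed the edgeR test in RANKL against PBS, and Adora3 fell with the vitamins. A2B is coupled to cyclic AMP and answers to high adenosine, and A3 couples to inhibitory G proteins. Adora2b (chr11:62248984-62266453, plus strand) measured 0.315, 0.524 and 0.602 FPKM in PBS, 1.56, 2.39 and 1.56 in RANKL and 0.409, 1.87 and 0.413 with the vitamins. RANKL lay above PBS in each library, and of the vitamin-treated libraries replicates 1 and 3 lay within the PBS range while replicate 2 lay within the RANKL range. The log2 fold change of 1.80 ± 0.558 between RANKL and PBS did not pass the test (adjusted p = 0.12, edgeR), although DESeq2 called it (adjusted p = 0.0193). Nor did -0.94 ± 0.543 for the vitamins against RANKL (adjusted p = 0.21) or 0.85 ± 0.549 against PBS (adjusted p = 0.242). Without vitamin replicate 2, a library in neither group of the first comparison but in the shared fit, the first was 1.80 with an adjusted p of 0.0116, the second was -1.92 with an adjusted p of 0.00259, and the third turned to -0.13 with an adjusted p of 0.789.

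Adora3 (chr3:105870858-105908926, plus strand) was a low transcript with 280 to 409 counts in PBS, 136 to 162 in RANKL and 8 to 50 with the vitamins. The levels were 1.48, 1.39 and 1.00 FPKM in PBS, 0.505, 0.488 and 0.553 in RANKL and 0.0813, 0.172 and 0.0260 with the vitamins, in 3 groups that did not overlap. Adora3 was 4.98-fold lower in the vitamin-treated group than in the RANKL group (log2 fold change -2.32 ± 0.493, adjusted p = 0.00799, edgeR) and 13.5-fold lower than in PBS (-3.76 ± 0.516, adjusted p = 0.00088). Without vitamin replicate 2 these were -2.94 and -4.38. The difference of -1.44 ± 0.464 between RANKL and PBS did not pass the test (adjusted p = 0.132), although DESeq2 called it (adjusted p = 0.0225), and it passed without vitamin replicate 2 (-1.44, adjusted p = 0.0354). Tmigd3 overlaps Adora3 on the same strand and its 2 entries held 0 to 29 counts, so in vitamin-treated libraries the split of reads between them may matter.

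The window upstream of the RefSeq start of Adora3, chr3:105904171-105904420 on the plus strand (GRCm38.p6), lies within the span given above, which the table begins farther upstream. It is set beside that of P2ry14 because its E-box and AP-1 letters overlap too. Capitals mark the same motifs, with the PU.1-type letters on the other strand.
Adora3: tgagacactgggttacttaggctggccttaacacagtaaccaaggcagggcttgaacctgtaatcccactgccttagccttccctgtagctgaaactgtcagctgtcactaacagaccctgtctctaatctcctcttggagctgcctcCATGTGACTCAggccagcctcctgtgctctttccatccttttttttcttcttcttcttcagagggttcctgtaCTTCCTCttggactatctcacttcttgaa
These were the only 2 of the 15 windows with such an overlap, and in RANKL against PBS the mean of P2ry14 was higher and that of Adora3 lower, while both genes fell with the vitamins. A match describes letters in the window and not a bound site.

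Entpd1, whose product CD39 removes ATP and ADP at the cell surface, fell in the vitamin-treated group against PBS. Entpd1 (chr19:40612366-40741602, plus strand) measured 21.9, 23.1 and 26.4 FPKM in PBS, 13.7, 7.65 and 14.5 in RANKL and 8.02, 6.10 and 8.70 with the vitamins. Both RANKL-containing groups lay below PBS in each library and overlapped with each other through RANKL replicate 2. Entpd1 was 3.04-fold lower with the vitamins than in PBS (log2 fold change -1.61 ± 0.280, adjusted p = 0.00245, edgeR). The difference between RANKL and PBS was -1.10 ± 0.277 (adjusted p = 0.0652) and, with the replicate block, -1.17 (adjusted p = 0.0197), and it passed without vitamin replicate 2 (-1.10, adjusted p = 0.0247). The vitamins against RANKL gave -0.51 ± 0.274 (adjusted p = 0.185), and -0.77 (adjusted p = 0.0257) without RANKL replicate 2. The gene Gm8783 lies within Entpd1 on the same strand and had 92 to 119 counts in PBS and RANKL and 690, 224 and 546 with the vitamins, against 2626 to 3622 counts of Entpd1 there.

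Of the other genes with symbols of P2 receptors, 7 of 9 passed the filter on low counts, and 2 rose with RANKL, P2rx5 and P2ry10b, beside 2.35% of all genes tested. P2rx5, a channel gene studied in osteoclast fusion and inflammatory bone loss, had 27, 23 and 6 counts in PBS, 222, 338 and 246 in RANKL and 90, 98 and 141 with the vitamins, without overlap between the groups. Its log2 fold change was 3.69 ± 0.519 in RANKL against PBS (adjusted p = 0.00859, edgeR), -1.12 ± 0.462 for the vitamins against RANKL (adjusted p = 0.0899) and 2.56 ± 0.501 against PBS (adjusted p = 0.00407). P2ry10b, a receptor-like gene with the near copy P2ry10, is listed by its symbol and not for a known response to nucleotides. Its level rose by 1.10 ± 0.248 with RANKL (adjusted p = 0.0476, edgeR), and was 1.62 ± 0.252 higher with the vitamins than in PBS (adjusted p = 0.00143). P2rx1 had 22, 28 and 20 counts in PBS, 0, 15 and 0 in RANKL and 0 in each vitamin-treated library, at least 7.83-fold lower than in PBS (adjusted p = 0.0332, edgeR). P2rx1 reached the filter through the PBS group, where it is high, and was not called without the filter (adjusted p = 0.0562). P2rx2 was at 0 counts in all 9 libraries, which allows up to 4.55e-06% of a library's counts. Among the other adenosine receptors, Adora1 had at most 4 counts in any library, and Adora2a, whose receptor is known for restraining inflammation, had 117, 86 and 55 counts in RANKL and 0, 15 and 0 in the vitamin-treated group (log2 fold change -4.03 ± 1.35, adjusted p = 0.0454). The size of this change rests on vitamin replicate 2, which held all the counts of its group. With 1 library left out at a time, the call was lost for 7 of 9 libraries for Adora2a and for 6 of 9 each for P2ry10b with RANKL and P2rx1, and for 0 of 9 for P2rx5. Adora2a was also not called without the filter (adjusted p = 0.0745), in the fit of the 2 groups alone (adjusted p = 0.0639) or with the replicate block (adjusted p = 0.0668), nor P2ry10b with RANKL without the filter (adjusted p = 0.0659).

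Of 14 tested genes in the list of nucleotide and adenosine enzymes, which also holds the adenosine deaminase-binding peptidase gene Dpp4, 0 rose and 5 fell, Dpp4 among them, with the vitamins against RANKL, beside 16.4% and 17.2% of all genes. Against PBS 1 rose and 5 fell, beside 19.8% and 21.0% of all genes. With RANKL against PBS, edgeR called 0 of the 14 in either direction, beside 2.35% of all genes higher and 1.26% lower, with 3 at an unadjusted p under 0.05. DESeq2 called 1 lower, beside 3.94% of the genes to which it gave an adjusted p, and limma on log2(FPKM + 0.1) called 0. Pnp, which cleaves inosine and guanosine, went from a mean of 43.6 ± 2.71 FPKM with RANKL to 12.2 ± 7.71 with the vitamins (log2 fold change -1.74 ± 0.321, adjusted p = 0.0046, edgeR). Enpp4, an ectophosphodiesterase gene, went from 0.987 ± 0.174 to 0.178 ± 0.0968 FPKM (-2.35 ± 0.391, adjusted p = 0.00312). Enpp1, which makes pyrophosphate from ATP, was 2.59-fold lower with the vitamins than in PBS (-1.37 ± 0.235, adjusted p = 0.00222). Dpp4 had 20, 15 and 15 counts with RANKL and 0 in each vitamin-treated library, at least 5.52-fold lower (adjusted p = 0.0118, edgeR), and was not called by limma on log2(FPKM + 0.1) (adjusted p = 0.14). In PBS it had 37, 18 and 4 counts, so Dpp4 reached the filter on low counts through the libraries without vitamins, where it is high. Nt5e, which encodes the AMP-cleaving ectoenzyme CD73 that acts after CD39, had at most 23 counts in any library.

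Of 10 tested genes for release channels and nucleoside transporters, 1 rose (Vdac1) and 1 fell (Panx1) with RANKL, 2 rose and 0 fell with the vitamins against RANKL, and 2 rose and 1 fell against PBS. The shares of all genes called higher and lower were 2.35% and 1.26%, 16.4% and 17.2%, and 19.8% and 21.0% in these comparisons. Panx1, the pannexin channel through which cells release ATP, measured 23.5, 16.1 and 25.4 FPKM in PBS, 8.47, 6.82 and 9.39 in RANKL and 6.54 to 10.1 with the vitamins. It was 2.87-fold lower with RANKL than in PBS (log2 fold change -1.52 ± 0.222, adjusted p = 0.00952, edgeR), and the vitamins changed it by 0.06 ± 0.218 (adjusted p = 0.855). Vdac1, the mitochondrial outer-membrane channel, rose by 0.41 ± 0.0906 with RANKL (adjusted p = 0.0434, edgeR), a call lost for 7 of the 9 libraries left out and with the replicate block (adjusted p = 0.0566), while that of Panx1 was lost without PBS replicate 1 (0.0539) or without PBS replicate 3 (0.0529). Slc17a9, the vesicular ATP transporter, was 1.61-fold higher with the vitamins than with RANKL alone (0.69 ± 0.182, adjusted p = 0.0193). This call was lost without RANKL replicate 1 (0.0721), RANKL replicate 2 (0.0503) or vitamin replicate 3 (0.0773), and with limma on log2(FPKM + 0.1) (0.0584) or log2(FPKM + 1) (0.0556). Slc29a1, an equilibrative nucleoside transporter, was 1.67-fold higher with the vitamins than in PBS (adjusted p = 0.00723).

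Among 18 tested genes for the G proteins, phospholipases, adenylyl cyclases, phosphodiesterases and arrestins that act downstream of P2Y and adenosine receptors, 1 rose with RANKL and 0 fell, 2 rose and 8 fell with the vitamins against RANKL, and 5 rose and 9 fell against PBS. Adcy3, an adenylyl cyclase gene, measured 2.84, 4.01 and 2.42 FPKM with RANKL and 0.329, 0.590 and 0.454 in the vitamin-treated group (log2 fold change -2.60 ± 0.247, adjusted p = 0.000394, edgeR). Adcy7, the more abundant cyclase gene of the list in these cells, went from a mean of 61.4 to 29.2 FPKM (-0.95 ± 0.172, adjusted p = 0.00422), and Arrb2, a beta-arrestin gene, from 77.9 to 45.4 (-0.66 ± 0.162, adjusted p = 0.0146). The Arrb2 call was lost without RANKL replicate 1 (0.0550), RANKL replicate 3 (0.0581) or vitamin replicate 3 (0.0595). Plcb4, a phospholipase C gene, was the one that rose with RANKL (1.54 ± 0.250, adjusted p = 0.0146), a call lost without PBS replicate 3 (0.0553), RANKL replicate 1 (0.0594) or RANKL replicate 2 (0.0554). These genes serve many receptors, and the counts stand beside 2.35% higher and 1.26% lower among all genes for RANKL against PBS, 16.4% and 17.2% for the vitamins against RANKL, and 19.8% and 21.0% against PBS.

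**Figure D4:**
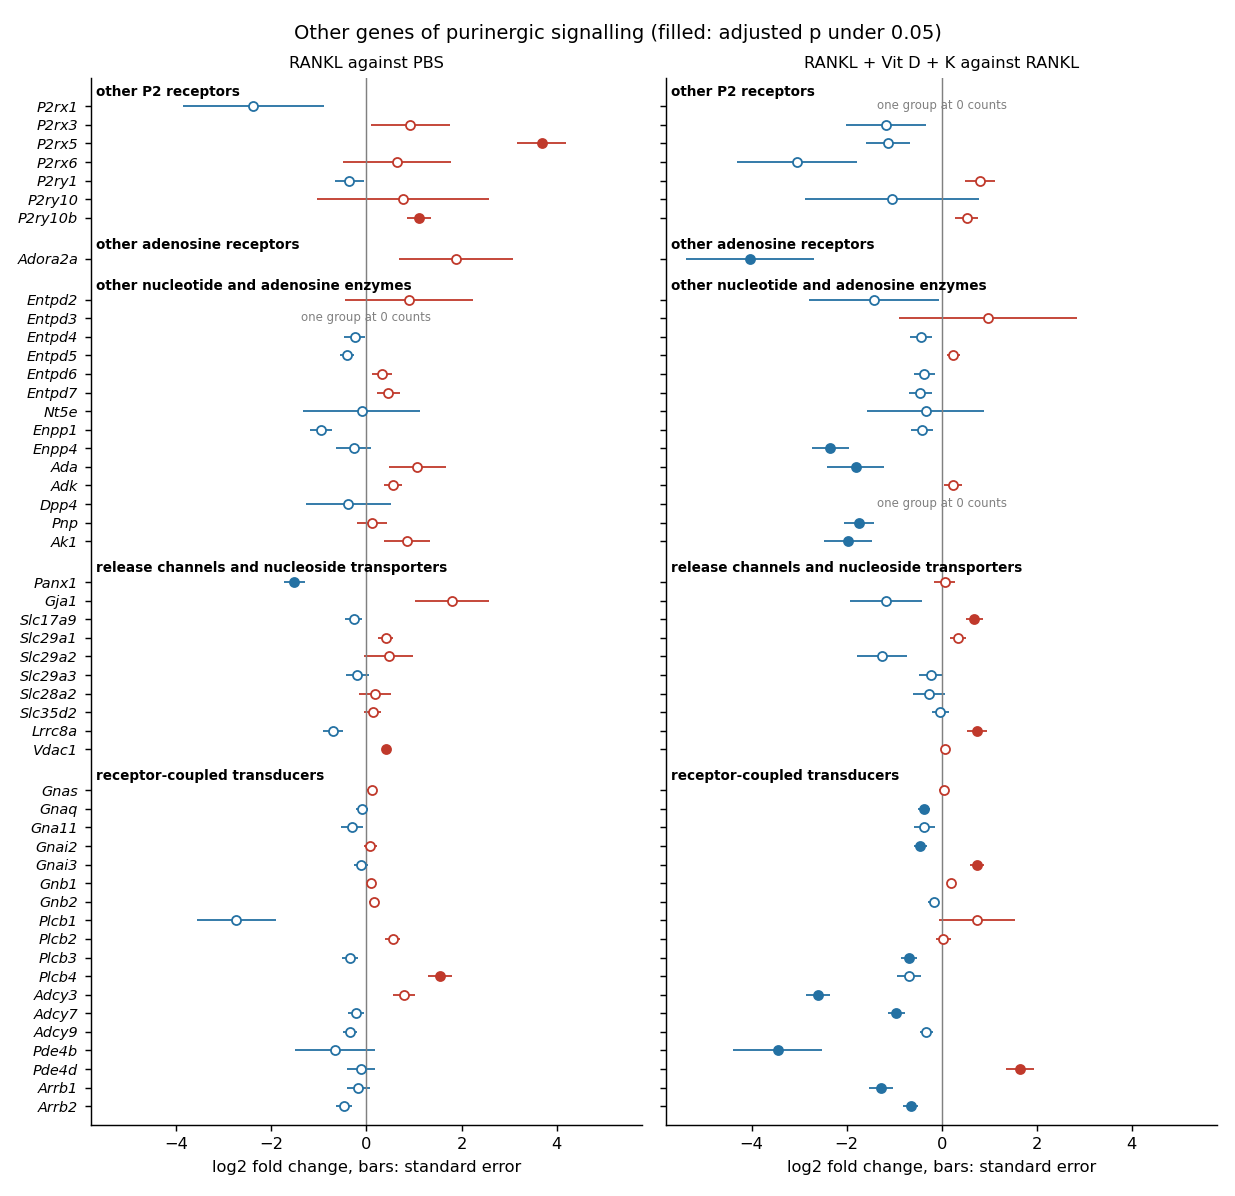
log2 fold changes with standard errors of the genes in the pathway lists that passed the filter, in RANKL against PBS (left) and RANKL + Vit D + K against RANKL (right), by list. Red points lie above 0, blue points below, and filled points have an adjusted p under 0.05. P2rx5 is the highest filled point on the left (3.69), Panx1 the filled point below 0 there (-1.52), and on the right 4 enzyme genes and 8 of 18 transducer genes are filled below 0, and Dpp4, also called lower there, is marked as having a group at 0 counts instead of a point.

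The genes whose levels followed each called member most closely over the 9 libraries were named by the highest Pearson correlation of log2 CPM, as a description. They were Ikbkb (r = 0.991) and Unc93b1 (0.988) for P2rx4, Ms4a6c (0.997) and Uba7 (0.997) for P2rx7, Alkbh5 (0.996) and Man1a2 (0.990) for P2ry2, and Snx11 (0.997) and 4932422M17Rik (0.997) for P2ry6. For P2ry12 they were Supt7l (0.981) and Tm4sf5 (0.980), for P2ry14 Plxnd1 (0.995) and Rp2 (0.986), for Adora3 Ighm (0.991) and 6530402F18Rik (0.991), and for Entpd1 Dnajc5 (0.995) and Ccni (0.995). Ighm, an immunoglobulin heavy chain gene of B cells, measured 33.7 ± 12.7 FPKM in PBS, 8.12 ± 1.34 in RANKL and 0.351 ± 0.366 with the vitamins, and the part of B cells was not tested. Plxnd1, a semaphorin receptor gene, measured 67.4 ± 3.62 FPKM in PBS, 110 ± 1.52 in RANKL and 54.0 ± 10.6 with the vitamins, the same order of groups as P2ry14. Ms4a6c, a macrophage membrane protein gene, measured 158 ± 18.8, 112 ± 40.6 and 12.7 ± 8.66 FPKM, the order seen for P2rx7. These libraries share group membership, so any pair of genes that separates the groups in like order reaches a high r.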

How the data were processed

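The 9 libraries were assigned to groups from their titles and treatment labels. The authors deposited 1 table with whole-number counts per gene, not normalized, and FPKM values, which the authors scaled to transcript length and library size. The labels' processing notes name cutadapt 1.9, HISAT2 2.0.4, StringTie 1.3.4d, edgeR and the build hg38, although the gene IDs are mouse. Of 28379 genes, 24678 (87.2%) had the chromosome, start and end of GENCODE M21 on GRCm38, so positions are given as GRCm38. How reads were counted, and whether strand was used, is not given in the sources used here. In the deposited counts the value 4 occurred 2.22 times as often as 3 and 5 did on average.

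Counts of the 17002 genes that passed filterByExpr were normalized by TMM and tested in edgeR 4.0.16 (R 4.3.3) with glmQLFit and glmQLFTest, all 9 libraries and 1 coefficient per group, two-sided, with Benjamini-Hochberg adjustment over all genes tested and a threshold of 0.05. The biological coefficient of variation of the 3 groups was 0.273, 0.303 and 0.440 for PBS, RANKL and RANKL + Vit D + K. Levels are FPKM, shown as mean ± SD, and fold changes carry SE. Groups whose FPKM do not overlap are given as a description, since an exact permutation test of 3 against 3 cannot go below 0.1. DESeq2 1.42.0 and limma 3.58.1 served as alternatives. In simulated counts for RANKL against PBS (16367 genes), 25.5% of 94 genes changed 2-fold and 61.6% of 99 changed 4-fold were called, with 3 false calls.

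For RANKL against PBS, deviations of same-numbered libraries from their group means correlated at 0.122, 0.219 and 0.155, so the replicate numbers were taken to pair these libraries on the data alone. The fit without a block was kept as the main one, and its values are given unless another fit is named. With the replicate block, P2ry2 and Entpd1 were called lower (log2 fold changes -0.82 and -1.17), and no other call among the 10 members changed in this comparison. The members and the lists of pathway and marker genes (macrophage, osteoclast, neutrophil, T and NK cell, B cell, dendritic cell, platelet, mast cell, eosinophil, erythroid, stromal and endothelial) were chosen with earlier results of these data known. All 10 members are named, and up to 4 genes per pathway list with the smallest p among those called; Camkk2, Fchsd2, Med12l and Tmigd3 are named as genes at the members' loci and Gm8783, Ms4a6c, Plxnd1, P2rx2, Adora1, Nt5e, Ighm, Cd68, Kdr, Pecam1, Cdh5, Pf4, Gp1ba and Atp6v0d2 were given values after these were seen. Upstream windows of 250 bases come from RefSeq (GRCm38.p6), which matched 9 of the 10 members; P2ry6 had no entry in the table used. One further gene of the enzyme list was left out of its counts and is not reported here.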

Additional observations from a re-analysis of the deposited data

How the results depend on the processing

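Of 570 values of the 10 genes under other settings, 513 kept their direction and their side of the threshold, 17 fell short of it, 38 newly passed it and 2 turned sign. Both of these were Adora2b in RANKL + Vit D + K against PBS, at -0.13 without vitamin replicate 2 (-0.13 to 1.24 over the libraries left out) and -0.12 without replicate 2 of both RANKL groups, a setting chosen after seeing the data. For RANKL against PBS, the genes called higher and lower over all genes were 1056 and 643 with DESeq2, 1034 and 702 with the 2 groups alone, 843 and 539 without both replicates 2, 605 higher with limma on log2(FPKM + 0.1) and 122 lower without a filter, beside 400 and 214. Of the 10 genes, DESeq2 called 2 higher and 3 lower, the 2 groups alone 2 and 4, leaving out both replicates 2 gave 2 and 2, limma called 1 lower with a pseudocount of 0.1 and 2 with 1, and the replicate block called 2 lower. Leaving out 1 library at a time gave 96 to 972 genes higher and 30 to 931 lower, and 0 to 2 and 0 to 3 of the 10. For RANKL + Vit D + K against RANKL, 1912 genes were lower with the 2 groups alone and 4783 without both replicates 2, beside 2929, and 1578 to 3773 were higher and 1621 to 4486 lower with 1 library left out. Against PBS the latter ranges were 2469 to 4143 and 2297 to 4725. Of the 10, 1 stayed higher and 4 to 8 were lower against RANKL, and 1 and 5 to 8 against PBS. limma on log2(FPKM + 0.1) put the median of all genes at -0.16 for the vitamins against RANKL, beside -0.04. The causes of these shifts were not tested. Same-numbered libraries deviated together at 0.0062 to 0.107 for the vitamins against RANKL and at -0.0216 to 0.0237 against PBS, so the numbers were not taken as pairs there. The summed osteoclast and neutrophil markers were each highest in replicate 2 and lowest in replicate 3 of every group, an order that the other marker lists did not all share. What this order reflects was not tested. In the vitamin comparisons the replicate block called P2ry13 (-1.92 and -1.65) and no longer called Adora2a against RANKL (-4.26). Counts of a few reads carry little precision, which limits Adora3 with the vitamins, Adora2a and P2rx1.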
